A study of Mus musculus with 45 samples.

Results

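A panel of 50 cell cycle and DNA replication genes was followed in bone marrow-derived macrophages of Famin variant mice. The panel was chosen by function, with earlier results of these data known. All 50 were found among the 29307 genes of the count table and all 50 passed the filter on low counts, which kept 12905 genes. The panel held 13 genes of replication licensing and the replication fork, 3 genes of nucleotide supply for DNA, 9 G1 cyclins, kinases and the phosphatase Cdc25a, 17 genes of mitosis, 5 cell cycle transcription factors and 3 cyclin-dependent kinase inhibitors. Replication, mitosis and the inhibitors are described apart below, in M0, M1 and M2 macrophages and across the genotypes.

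Macrophages were grown with M-CSF for 6 days from the bone marrow of C57BL/6N mice aged 6 to 10 weeks, and then left unstimulated (M0) or polarized with IFN-γ plus LPS (M1) or with IL-4 (M2). The mice expressed 1 of 3 FAMIN variants. These were the non-risk form (Famin p.254I), the form linked to disease risk (Famin p.254V) and the form linked to monogenic disease (Famin p.284R). Famin p.254I was the reference for the genotypes, and Famin-deficient or unmodified mice were not analysed here. The variants were in the germline, so that every cell of a culture carried them. Poly(A) RNA of 45 cultures was sequenced, 5 in each of 9 groups, and libraries sharing genotype and replicate number were taken as the 3 cultures of 1 mouse (15 mice). The mice are thus the replicates, and the test below treats the 3 cultures of a mouse as separate samples unless the mouse is named as a block.

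In G1, D-type cyclins with Cdk4 or Cdk6 and then E-type cyclins with Cdk2 phosphorylate the retinoblastoma protein and its relatives, which releases E2F transcription factors to switch on genes of DNA replication. Licensing loads the MCM helicase onto origins of replication before S phase, and cyclin A and cyclin B with Cdk1 later drive mitosis, whose genes are read under the B-Myb, FoxM1 and MuvB factors. The inhibitors p21 (Cdkn1a), p27 (Cdkn1b) and p18 (Cdkn2c) restrain the kinases, and bone marrow macrophages divide in M-CSF and slow or stop dividing when LPS activates them.

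Promoter windows of 300 bases, from 250 before to 50 after the annotated start, were available in RefSeq (GRCm38.p6) for 40 of the 50 genes, and the start listed first was used where a gene had several. They are shown to set the promoters of replication genes beside those of mitosis genes, and the letters searched for, on both strands, were the E2F site (TTTCCCGC, TTTGGCGC, TTTGCCGC or TTTCGCGC), the cell cycle genes homology region or CHR (TTTGAA or TTCGAA) and the CCAAT box (CCAAT). Capitals mark the matches. Mcm7 and Mcm3 encode subunits of the replicative helicase, Top2a the topoisomerase that untangles chromosomes, Cdk1 the mitotic kinase, and Cdkn1a the inhibitor p21.
Mcm7 (chr5:138171834-138172133, minus strand): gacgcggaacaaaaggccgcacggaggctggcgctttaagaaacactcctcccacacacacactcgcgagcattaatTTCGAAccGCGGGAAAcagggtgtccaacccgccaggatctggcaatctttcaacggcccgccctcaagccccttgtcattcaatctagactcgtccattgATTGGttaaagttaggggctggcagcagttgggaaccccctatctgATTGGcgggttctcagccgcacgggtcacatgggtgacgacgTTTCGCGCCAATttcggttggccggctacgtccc
Mcm3 (chr1:20820263-20820562, minus strand): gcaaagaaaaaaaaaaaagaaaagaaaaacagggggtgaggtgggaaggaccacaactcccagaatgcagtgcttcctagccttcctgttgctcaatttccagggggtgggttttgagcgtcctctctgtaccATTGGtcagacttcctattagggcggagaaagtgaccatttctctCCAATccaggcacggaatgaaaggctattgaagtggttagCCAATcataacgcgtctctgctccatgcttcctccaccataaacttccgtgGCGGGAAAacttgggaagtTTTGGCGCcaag
Top2a (chr11:99024140-99024439, minus strand): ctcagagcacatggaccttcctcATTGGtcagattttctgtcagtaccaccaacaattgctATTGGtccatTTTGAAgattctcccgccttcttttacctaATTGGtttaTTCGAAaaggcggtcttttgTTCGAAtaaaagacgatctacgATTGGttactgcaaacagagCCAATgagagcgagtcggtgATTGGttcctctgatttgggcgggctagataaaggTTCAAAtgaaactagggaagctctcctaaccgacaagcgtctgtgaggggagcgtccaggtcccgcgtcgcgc
Cdk1 (chr10:69352863-69353162, minus strand): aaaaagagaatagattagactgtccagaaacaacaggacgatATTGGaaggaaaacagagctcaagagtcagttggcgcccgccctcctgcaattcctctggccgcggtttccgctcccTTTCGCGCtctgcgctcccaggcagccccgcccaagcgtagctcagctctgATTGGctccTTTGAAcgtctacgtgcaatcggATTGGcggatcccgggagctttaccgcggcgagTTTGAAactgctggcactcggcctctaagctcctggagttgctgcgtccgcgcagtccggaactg
Cdkn1a (chr17:29090729-29091028, plus strand): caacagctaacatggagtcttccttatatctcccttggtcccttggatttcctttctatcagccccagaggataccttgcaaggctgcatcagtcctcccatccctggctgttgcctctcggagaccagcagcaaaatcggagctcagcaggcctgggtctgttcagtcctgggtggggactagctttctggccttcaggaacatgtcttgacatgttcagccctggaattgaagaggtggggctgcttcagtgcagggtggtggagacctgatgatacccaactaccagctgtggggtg

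An E2F site was found in 8 of the 11 windows of replication genes (72.7%) and in 1 of the 13 windows of mitosis genes (7.69%), against 2.32% of all 27025 genes with a window. The CHR had the opposite arrangement, in 3 of 11 replication genes (27.3%) and 10 of 13 mitosis genes (76.9%), against 19.4% of all genes. A CCAAT box was common to 9 of 11 replication genes and 12 of 13 mitosis genes (81.8% and 92.3%), against 37.9% of all genes. None of the 3 nucleotide supply genes had an E2F site, so that replication and nucleotide supply together had 8 of 14 (57.1%). G1 cyclins and kinases had 2 of 6 (33.3%). Only the listed letters were searched for, and a window without a match may hold a site with other letters. In mitosis genes the median CCAAT box lay 68 bases and the median CHR 23 bases upstream of the start, as the map of matches shows. In the window of Cdkn1a none of these letters was found, and the same held for the window of its other annotated start. In 3 cases matches overlapped, namely paired E2F sites in Mcm5 and in Mcm6, and an E2F site sharing 1 base with a CCAAT box in Mcm7.

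**Figure D1:**
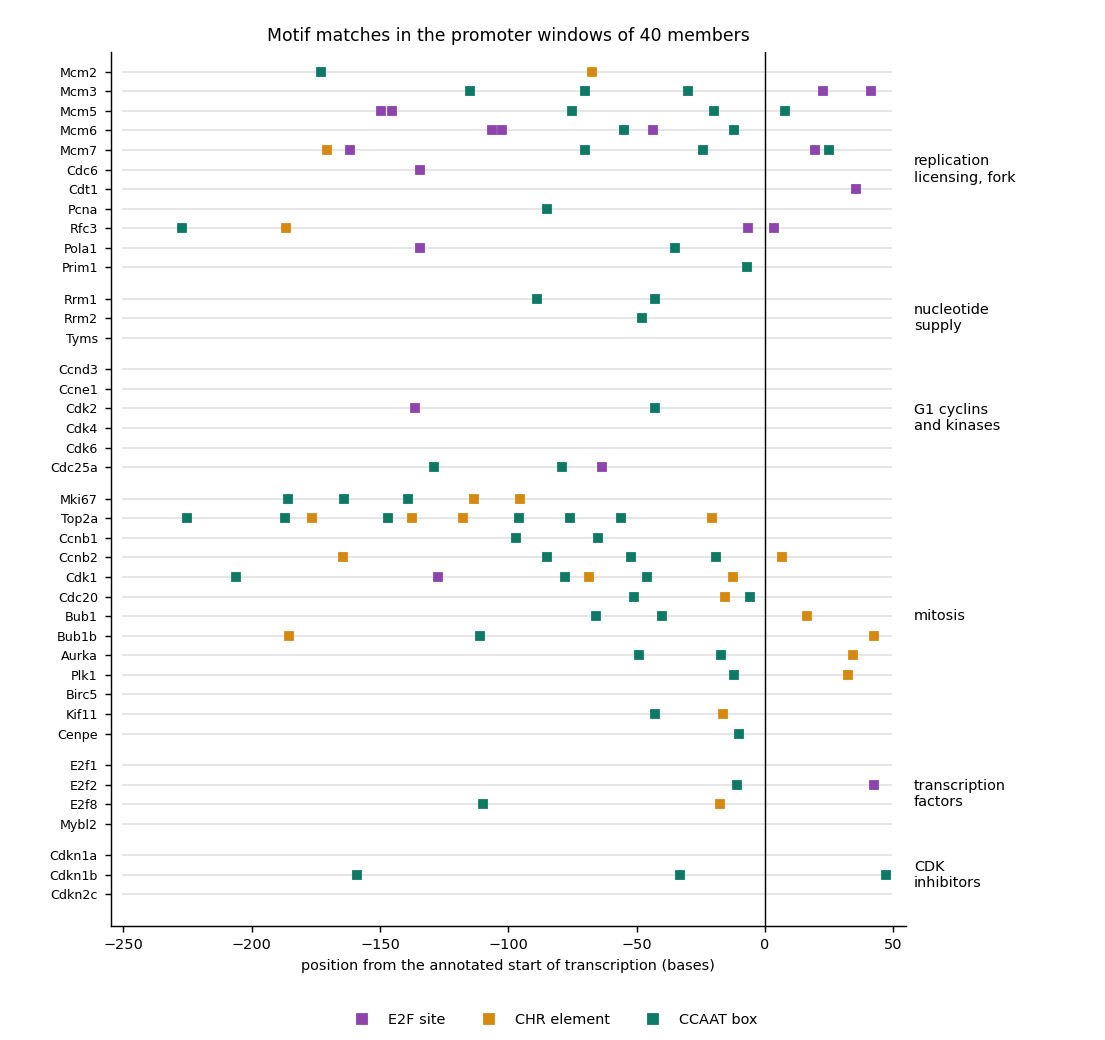
Position of E2F site, CHR and CCAAT box matches in the promoter windows of 40 genes, in bases from the annotated start of transcription (vertical line), with 1 row per gene grouped by role. E2F sites lay in 8 of 11 replication genes and CHR matches in 10 of 13 mitosis genes.

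Total counts per library ranged from 17239009 to 43740283 (median 27553642), and levels are given as CPM, the count of a gene per 1000000 counts of a library scaled by its TMM factor. Marker genes followed the labels. All 8 macrophage markers were detected in every polarization, with summed levels of 20040 to 33460 CPM in M0, 11290 to 15150 in M1 and 9635 to 13880 in M2. The 6 M1 markers summed to 11520 to 17190 CPM in M1 against 102 to 251 in M0, and the 6 M2 markers to 4664 to 14500 CPM in M2 against 651 to 924 in M0. Summed dendritic cell markers were also higher in M2 (1316 to 2348 CPM) than in M0 (39.9 to 305), and their part in the results was not tested. Summed markers of T and NK cells, B cells, erythroid cells and progenitors, and stromal cells reached at most 46.6, 11.8, 6.43 and 91 CPM in any library. Because these are bulk cultures, fewer cycling cells and less RNA of a gene per cell cannot be told apart. In the GENCODE M21 annotation of GRCm38, genes on the opposite strand overlap Mcm7, Ccnd1, Ccnd3, Cdk2, Cdk4, Ccne2, Ccna2, Cdc20, Kif20a and Cdkn1a among others, and whether strand was used in counting is not stated.

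The libraries of replicate number 2 stood apart in M1. Their summed level of the 17 mitosis genes was 723 CPM in Famin p.254I, 603 CPM in Famin p.254V and 605 CPM in Famin p.284R, whereas the 12 M1 libraries of other numbers lay between 223.5 and 429.3. In M0 the same mice were low, at 463.3, 394.5 and 359 CPM in the same order of genotypes, against 458.7 to 805.7 in the others. What the replicate number stands for is not given in the sources used here, and no lane or day is given per library. Summed neutrophil markers were higher in number 2 as well, at 234.1 to 332.2 CPM against 30.45 to 239.3 in M0 and at 98.69 to 152.6 against 46.69 to 100.1 in M1, while their summed M1 markers (11520 to 13380 CPM) lay in the lower part of the range of the others (11950 to 17190). Their part in the result was not tested. The counts that lead each account below are given with and without these 9 libraries, a comparison chosen after the data were seen.

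In M1 against M0, 28 of the 50 genes were lower and 9 higher (56% and 18%), where 40.3% and 37% of all 12905 genes were lower and higher (edgeR quasi-likelihood test, Benjamini-Hochberg adjusted p under 0.05). In M2 against M0, 37 were lower and 4 higher (74% and 8%), against 39.6% and 36.8% of all genes. The 9 genes that rose in M1 were Cdc6, Rfc3, Ccnd2, Ccnd3, Ccne1, Tpx2, E2f2, E2f8 and Cdkn1a, and the 4 that rose in M2 were Pcna, Cdk4, Cdc25a and Cdkn1a. In all, 23 genes were lower in both, Cdkn1a alone was higher in both, and 6 moved in opposite directions, Cdc6, Ccnd3, Tpx2 and E2f2 up in M1 and down in M2, Pcna and Cdk4 down in M1 and up in M2. Only Ccnd1 and Cdk2 were called in neither. Without replicate number 2, 37 genes were lower and 7 higher in M1, and 38 lower and 3 higher in M2. In that fit 39.3% of all genes were lower and 38.2% higher in M1, and 38.3% and 35.8% in M2. The ranges of the 15 libraries did not overlap for 5 genes between M1 and M0 and for 6 between M2 and M0, smaller shares of the panel than the 28.6% and 23.4% of all genes. M0 libraries serve both comparisons.

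**Figure D2:**
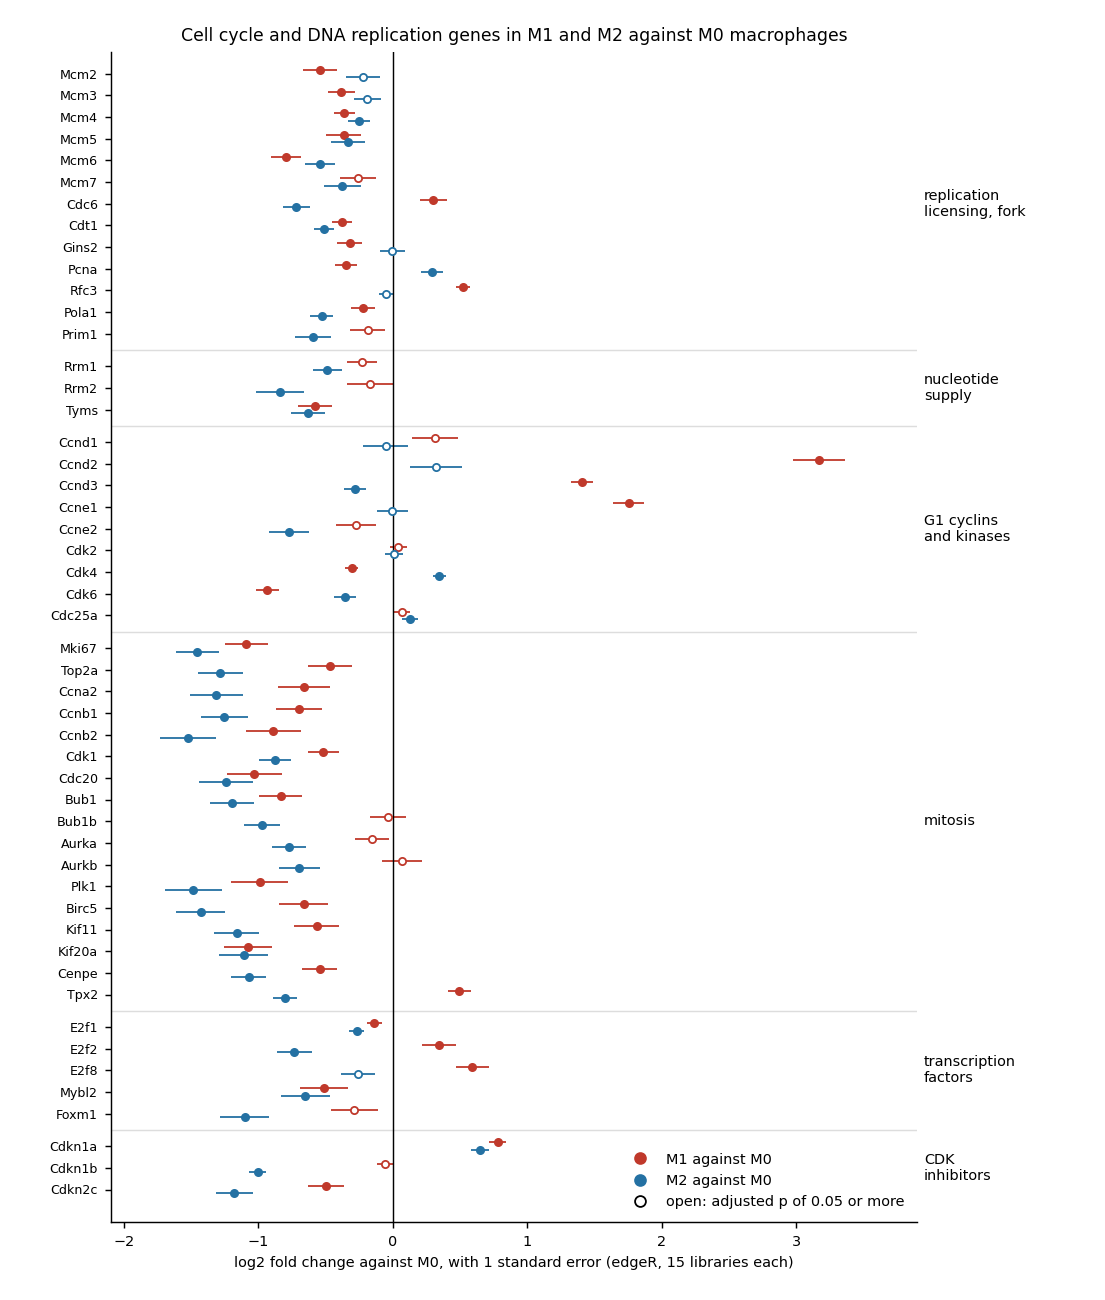
Log2 fold change of the 50 genes in M1 (red) and M2 (blue) against M0, 15 libraries each, with bars of 1 standard error from edgeR and genes ordered by role. Filled points passed an adjusted p of 0.05. All 17 mitosis genes lie left of 0 in M2, and Ccnd2, Ccnd3 and Ccne1 lie farthest to the right in M1.

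Most genes of licensing and the fork were lower after polarization. Among the 13, 9 fell and 2 rose in M1 (median log2 fold change of the list -0.349, all genes -0.027), and 8 fell and 1 rose in M2 (median -0.335, all genes -0.0251). Without replicate number 2, 11 fell and Rfc3 rose in M1, and the calls in M2 were the same. Mcm6, a subunit of the helicase, fell most in M1. Its level ran from 101.9 to 222.5 CPM in M0 (median 141.8), from 67.41 to 143.2 in M1 (median 80.05) and from 87.85 to 138.1 in M2 (median 103.2). The M1 range lay mostly below that of M0 but overlapped it. The log2 fold change was -0.80 (SE 0.114) in M1 (edgeR, adjusted p = 6.03e-08) and -0.54 (SE 0.114) in M2 (edgeR, adjusted p = 5.06e-05). Mcm2, Mcm3, Mcm4 and Mcm5 fell in M1 by 0.54, 0.38, 0.36 and 0.37 on the log2 scale, and of these Mcm4 and Mcm5 also fell in M2, by 0.25 and 0.33. Mcm7, whose gene hosts the microRNAs Mir25, Mir93 and Mir106b, was at 33.3 ± 8.85 CPM in M0, 27.8 ± 9.23 in M1 and 25.8 ± 4.69 in M2 (SD, n = 15) and fell in M2 (log2 fold change -0.38) without being called in M1. Without replicate number 2 it fell in M1 as well (-0.54, edgeR, adjusted p = 0.000272).

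The loading factors Cdc6 and Cdt1, which bring the MCM helicase to origins, parted in M1. Cdt1 fell in M1 and M2, by 0.38 and 0.51 on the log2 scale. Cdc6 was between 5.057 and 11.19 CPM in M0 (median 6.946), between 7.325 and 10.64 in M1 (median 8.843) and between 3.145 and 6.679 in M2 (median 4.427). Its M1 and M2 ranges did not overlap, while that of M0 overlapped both. It rose by 0.30 (SE 0.1) in M1 (edgeR, adjusted p = 0.00662) and fell by 0.72 (SE 0.103) in M2 (edgeR, adjusted p = 6.28e-08), and the rise in M1 was lost without replicate number 2 (0.18, edgeR, adjusted p = 0.131) and without replicate number 1 (0.23, edgeR, adjusted p = 0.0738). Gins2, of the GINS complex that joins the active helicase, fell in M1 by 0.32 and was at 22.06 CPM in M0 and 22.05 in M2.

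At the fork, Pcna rose in M2 and Rfc3 rose in M1, which none of the MCM genes did. Pcna encodes the sliding clamp and was the most abundant of the 13 per length, at 107.9 CPM per kilobase of exon in M0, followed by Mcm6 at 32.95. It lies at chr2:132249162-132253314, and its level ran from 196.8 to 367.1 CPM in M0 (median 236.2), 153.1 to 242.4 in M1 (median 204) and 283.5 to 359.7 in M2 (median 318.5). M1 and M2 did not overlap. Pcna fell in M1 by 0.35 (SE 0.0825, edgeR, adjusted p = 0.000225) and rose in M2 by 0.29 (SE 0.0824, edgeR, adjusted p = 0.00171). Rfc3, a subunit of the complex that loads this clamp, rose in M1 from 16.6 ± 1.89 to 23.8 ± 1.85 CPM (SD, n = 15), with ranges that overlapped only between 20.27 and 20.38, a log2 fold change of 0.52 (SE 0.051, edgeR, adjusted p = 4.35e-12), and was at 16.0 ± 1.38 in M2. Pola1 and Prim1 encode subunits of the polymerase that lays down primers. Pola1 fell in M1 and M2 (-0.22 and -0.53), and Prim1 fell in M2 (-0.60) and, without replicate number 2, in M1 (-0.39, edgeR, adjusted p = 0.013).

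The 3 genes of nucleotide supply were lower in M2. Rrm1 and Rrm2, the subunits of ribonucleotide reductase, fell in M2 by 0.49 and 0.84, and Tyms, thymidylate synthase, fell by 0.58 in M1 and 0.63 in M2. Rrm2 ran from 22.32 to 69.44 CPM in M0 (median 34.19), from 17.43 to 61.65 in M1 (median 30.13) and from 13.64 to 31.72 in M2 (median 21.2). The M2 range lay in the lower part of the other ranges. In M1 the sum of the 3 genes was 1.495 to 1.785 times that in M0 in the 3 mice of replicate number 2. It was 0.905 to 1.217 times in the 3 mice of number 1, and 0.423 to 0.8994 times in the 9 mice of numbers 3, 4 and 5. Without number 2, Rrm1 and Rrm2 fell in M1 (-0.46, edgeR, adjusted p = 4.64e-05, and -0.52, edgeR, adjusted p = 0.00612).

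The 2 largest changes of the panel were rises of G1 cyclins in M1, those of Ccnd2 and Ccne1. Ccnd2, cyclin D2 (ENSMUSG00000000184, chr6:127125162-127152193), was between 2.833 and 14.71 CPM in M0 (median 4.569) and between 19.61 and 79.07 in M1 (median 49.01). All 15 M1 libraries lay above all 15 M0 libraries. The log2 fold change was 3.17 (SE 0.192, edgeR, adjusted p = 3.51e-18). In M2 Ccnd2 lay between 3.591 and 10.56 CPM and was not called, although with the mouse as a block it was higher (log2 fold change 0.39, edgeR, adjusted p = 0.036). Ccnd3, cyclin D3, rose in M1 from 24.1 ± 3.87 to 63.8 ± 9.12 CPM (SD, n = 15), from 18.66 to 32.42 in M0 and from 48.88 to 78.58 in M1, a log2 fold change of 1.41 (SE 0.0815, edgeR, adjusted p = 5.45e-19), and fell to 19.8 ± 2.86 CPM in M2 (-0.28). Ccne1, cyclin E1, rose from 9.35 ± 2.98 CPM (6.012 to 15.56) to 31.7 ± 5.49 CPM (25.29 to 41.86) in M1 (1.75, SE 0.116, edgeR, adjusted p = 4.44e-17) and stood at 9.37 ± 1.30 in M2. For Ccnd3 and Ccne1, too, every M1 library lay above every M0 library.

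The related cyclins had other patterns. Ccnd1, cyclin D1, was the most abundant of the 9 per length in M0 (57.46 CPM per kilobase) and varied widely, from 141.1 to 459.8 CPM in M0 (median 232), 227.9 to 488.3 in M1 (median 352.2) and 139.8 to 520.7 in M2 (median 254.3). These ranges overlap almost entirely, and Ccnd1 was not called in M1 against M0 (edgeR, adjusted p = 0.088). It was called higher in M1 with the mouse as a block (log2 fold change 0.36, SE 0.107, edgeR, adjusted p = 0.00294), by limma-voom without a block (0.38, adjusted p = 0.0387) and without replicate number 5 (0.45, edgeR, adjusted p = 0.0409). Ccne2, cyclin E2, fell in M2 (-0.77) and had means of 12.6 CPM in M0 and 10.4 in M1. Per length, cyclin D1 stood at 57.46 CPM per kilobase in M0 and 71.55 in M1, and cyclin D2 at 0.5884 and 5.267.

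Among the kinases, Cdk6 fell and Cdk4 split by polarization. Cdk6 was between 96.96 and 156 CPM in M0 (median 131.9), between 51.44 and 76.22 in M1 (median 68.09) and between 83.18 and 138.9 in M2 (median 99.51). No M1 library reached the M0 or the M2 range. Its log2 fold change was -0.93 (SE 0.0822, edgeR, adjusted p = 2.45e-13) in M1 and -0.36 (SE 0.0813, edgeR, adjusted p = 0.000147) in M2. Cdk4 was at 94.1 ± 7.84 CPM in M0, 76.1 ± 8.13 in M1 and 119.7 ± 6.95 in M2 (SD, n = 15), with M1 and M2 ranges that did not overlap, and fell by 0.31 in M1 (edgeR, adjusted p = 2.06e-07) and rose by 0.35 in M2 (edgeR, adjusted p = 1.75e-08). Tspan31 overlaps Cdk4 on the opposite strand. Cdk2, the partner of cyclin E, was called in neither comparison, at 33.4 ± 4.93, 34.4 ± 3.74 and 33.7 ± 3.67 CPM. The rise of Cdc25a in M2 (log2 fold change 0.13, edgeR, adjusted p = 0.0444) was lost under 18 of the 30 other settings tried.

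**Figure D3:**
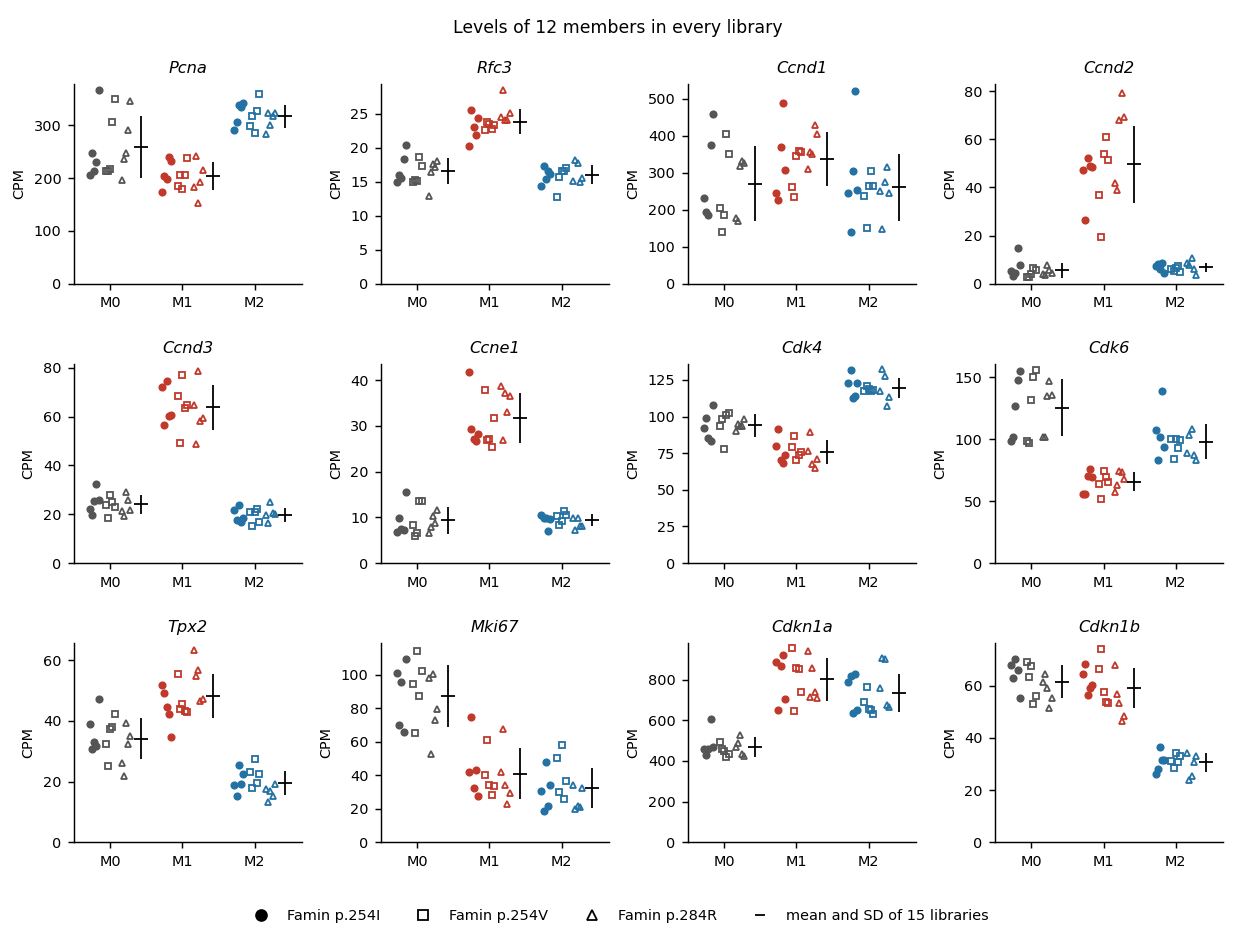
CPM of 12 genes of the panel in each of the 45 libraries, by polarization, with symbols for genotype and the mean and SD of 15 libraries beside each group. For Ccnd2, Ccnd3, Ccne1, Cdk6 and Cdkn1a the M1 points do not overlap the M0 points, and for Cdkn1a and Cdkn1b the M2 points do not overlap the M0 points.

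All 17 mitosis genes fell in M2, with a median log2 fold change of -1.20, against -0.0251 for all genes. The largest falls were those of Ccnb2, cyclin B2 (-1.52, SE 0.211, edgeR, adjusted p = 3.14e-08), the mitotic kinase Plk1 (-1.48), the proliferation marker Mki67 (-1.45), Birc5, survivin (-1.43), and Ccna2, cyclin A2 (-1.31), and the smallest was that of Aurkb, the Aurora B kinase (-0.70, edgeR, adjusted p = 7.37e-05). In 16 of the 17 the M2 culture was below the M0 culture of the same mouse in 15 of 15 mice. The share of all genes that were so was not counted. Ranges did not overlap for Ccnb1, Cdk1 and Cdc20, which is not above the 23.4% of all genes. Cdk1 was between 34.56 and 67.57 CPM in M0 (median 46.64) and between 18.07 and 32.98 in M2 (median 25.68), so that every M2 library lay below every M0 library. The summed level of the 17 genes was 567 ± 123 CPM in M0 and 254 ± 66.7 in M2 (SD, n = 15), and M2 was 0.3024 to 0.6307 times M0 within each mouse.

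In M1, 13 of the 17 fell, Tpx2 rose, and Bub1b, Aurka and Aurkb were not called (median -0.66, all genes -0.027). The largest falls were those of Mki67 (-1.09, SE 0.16, edgeR, adjusted p = 9.85e-08), the kinesin Kif20a (-1.08), Cdc20, the activator of the anaphase-promoting complex (-1.03), and Plk1 (-0.99). Mki67 (ENSMUSG00000031004, chr7:135689784-135716361) was between 52.75 and 114.1 CPM in M0 (median 94.26), between 23.15 and 74.55 in M1 (median 34.41) and between 18.45 and 58.27 in M2 (median 30.83). In M1 its 3 highest libraries, at 61.24, 67.29 and 74.55 CPM, were those of replicate number 2, and the other 12 did not pass 43.19. Tpx2 (ENSMUSG00000027469, chr2:152847964-152895321), a spindle assembly factor that activates Aurora A, ran from 21.83 to 47.23 CPM in M0 (median 33.06), from 34.7 to 63.17 in M1 (median 46.62) and from 13.15 to 27.51 in M2 (median 19.23). It rose by 0.49 in M1 (SE 0.0864, edgeR, adjusted p = 2.56e-06) and fell by 0.80 in M2 (SE 0.0881, edgeR, adjusted p = 1.27e-10), and its M1 and M2 libraries did not overlap.

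The fall of the mitosis genes in M1 depended on the replicate number. Summed over the 17 genes, M1 was 0.351 to 0.9361 times M0 in the 12 mice of numbers 1, 3, 4 and 5, lower in 12 of 12, and 1.529 to 1.685 times M0 in the 3 mice of number 2, higher in 3 of 3. In M1, number 2 was the highest of the 5 mice for 16 of the 17 genes in each genotype, and the spread over the 15 libraries was wide, with a median coefficient of variation of 40.8% in M1 against 23.9% in M0 and 28.1% in M2. Top2a reached 151, 132.8 and 125.8 CPM in the 3 M1 libraries of number 2 and 38.66 to 85.5 in the other 12. In number 2, 40 of the 50 genes were higher in M1 than in M0 in 3 of 3 mice and 2 were lower, where 39.5% and 39.9% of all genes were. For the other numbers 5 to 14 were higher and 22 to 39 lower, where for numbers 1, 3, 4 and 5 the shares of all genes were 38.3%, 37.5%, 35.8% and 38.1% higher and 41%, 40.4%, 38.5% and 39.9% lower. Without number 2, Bub1b, Aurka and Aurkb also fell in M1 (-0.33, -0.43 and -0.28, edgeR, adjusted p = 0.0105, 0.000454 and 0.0335), so that 16 of the 17 were lower, and in M2 all 17 still fell. In M2 the mitosis genes of number 2 were low like those of the others, at 0.4096 to 0.6006 times M0.

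**Figure D4:**
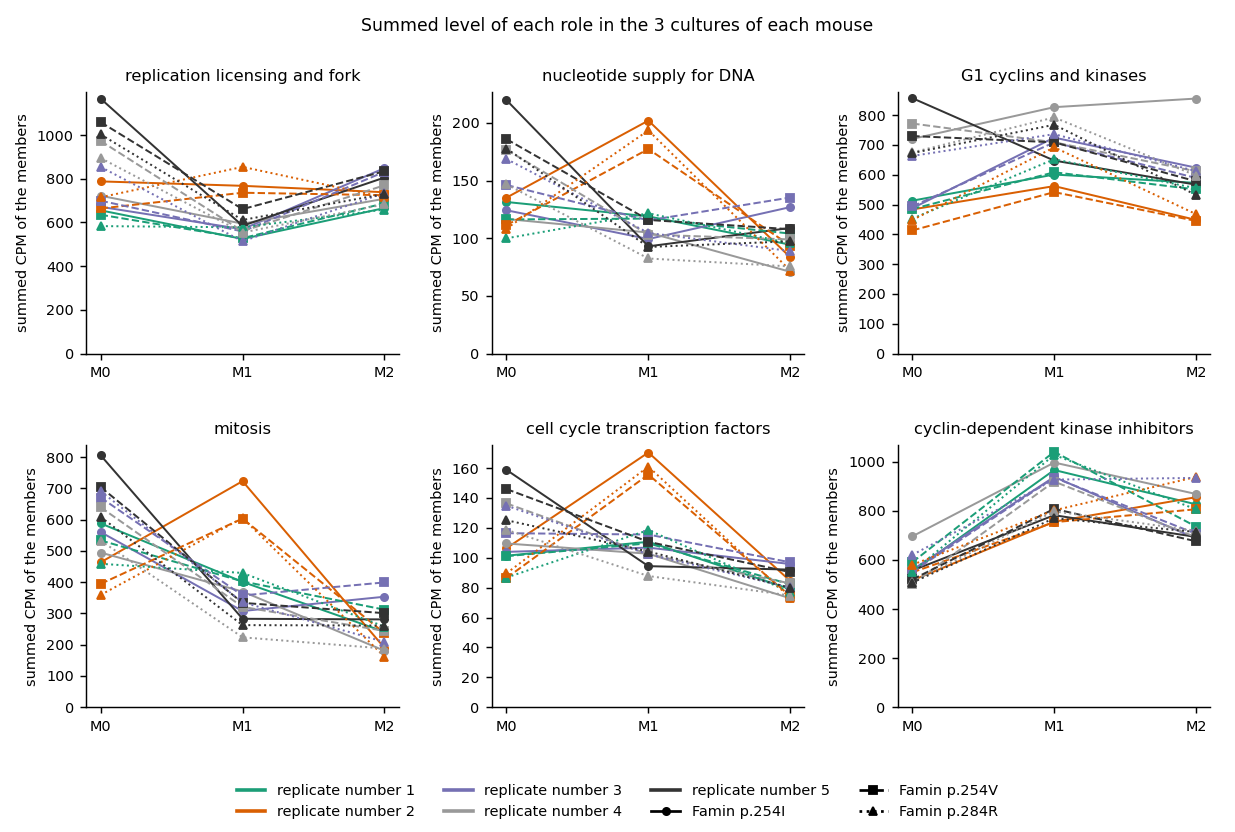
Summed CPM of the genes of each role in the M0, M1 and M2 cultures of each of the 15 mice, with lines joining cultures of 1 mouse, colours for replicate numbers and symbols and line styles for genotypes. In M1 the mice of number 2 (orange) have mitosis sums of 603 to 723 CPM, above the 223.5 to 429.3 CPM of the others, and the inhibitor sum rises from M0 to M1 in all 15 mice.

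The same mice stood apart for replication, to a lesser degree. Summed over the 13 genes, M1 was 0.9743 to 1.195 times M0 in number 2 and 0.5012 to 0.9907 times in the others, lower in 12 of 12. Number 5 differed in M0, where its 3 libraries held the highest replication sums, 1003 to 1167 CPM against 583 to 973 in the other 12. Without every number 5, Mcm5, Gins2 and Pola1 of the replication genes and Ccna2, Kif11 and Top2a of the mitosis genes were no longer called in M1 against M0. E2f1 and Mybl2 were also lost there, and Mcm4, Mcm5 and Mcm7 in M2 against M0. Most of these losses were not particular to number 5. In M1, Pola1, Top2a, E2f1 and Mybl2 were also lost without number 3 and without number 4, and Mcm5 without number 4. The losses in M2 were also seen without number 4.

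Of the 5 transcription factors, E2f8 and E2f2 rose in M1. E2f8, a repressor of the E2F family, ran from 11.78 to 28.24 CPM in M0 (median 16.68), 18.32 to 40.11 in M1 (median 24.55) and 8.318 to 19.08 in M2 (median 15.27), a log2 fold change of 0.59 in M1 (SE 0.125, edgeR, adjusted p = 5.29e-05). The ranges overlapped, with M1 the highest. E2f2, an activator, rose by 0.34 in M1 (edgeR, adjusted p = 0.0136) and fell by 0.73 in M2 (edgeR, adjusted p = 3.3e-06). Its rise was lost without replicate number 2 (0.10, edgeR, adjusted p = 0.445) and without replicate number 1. The rise was also lost without the Famin p.254I mouse of number 2 alone, and without the Famin p.284R mouse of number 2 alone. E2f1, also an activator, fell slightly, by 0.14 and 0.27, and Mybl2 (B-Myb) by 0.51 and 0.65, in M1 and M2. The fall of E2f1 in M1 was lost under 11 of the 30 other settings tried. Foxm1, the activator of G2 and M phase genes, fell in M2 (-1.10, SE 0.18, edgeR, adjusted p = 8.16e-07) and, without number 2, in M1 (-0.69, edgeR, adjusted p = 0.000118).

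The cyclin-dependent kinase inhibitors each had a pattern of their own. Cdkn1a (p21, ENSMUSG00000023067, chr17:29090976-29100727) was the most abundant gene of the panel per length, at 131.6 CPM per kilobase in M0, 225.7 in M1 and 206.6 in M2. It ran from 419.3 to 605.8 CPM in M0 (median 457.1), from 643.9 to 953.3 in M1 (median 849.5) and from 630.6 to 904.5 in M2 (median 688.7). Every M1 and every M2 library lay above every M0 library. The log2 fold change was 0.78 (SE 0.0643, edgeR, adjusted p = 3.25e-14) in M1 and 0.65 (SE 0.0642, edgeR, adjusted p = 8.04e-12) in M2. Replicate number 2 moved in the same direction as the others, but its M1 levels, at 649.3 CPM in Famin p.254I, 643.9 CPM in Famin p.254V and 712.5 CPM in Famin p.284R, lay at the low end.

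Cdkn1b (p27, ENSMUSG00000003031, chr6:134920401-134925513) was lower in M2 than in M0 or M1. It ran from 51.48 to 70.15 CPM in M0 (median 63), from 46.67 to 73.9 in M1 (median 57.73) and from 23.75 to 36.56 in M2 (median 31.34). M0 and M1 overlapped, and the M2 range lay wholly below both. The fall in M2 was 1.01 on the log2 scale (SE 0.0613, edgeR, adjusted p = 4.82e-18), and M1 was 0.95 above M2 (edgeR, adjusted p = 1.24e-17). Cdkn2c (p18), which binds Cdk4 and Cdk6, fell in M1 (-0.49, SE 0.134, edgeR, adjusted p = 0.00105) and in M2 (-1.18, SE 0.136, edgeR, adjusted p = 5.46e-10). Its M1 levels ranged from 11.14 to 37.89 CPM, wider than the 21.24 to 34.82 of M0 and the 9.012 to 17 of M2. In M1 Cdkn2c followed the mitosis genes by number, higher than in M0 in 3 of 3 mice of number 2 and lower in 12 of 12 others. The sum of the 3 inhibitors, most of it Cdkn1a, was 1.373 to 1.86 times M0 in M1 and 1.228 to 1.656 times in M2, higher in 15 of 15 mice each.

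Compared directly, M1 macrophages held more of most of these transcripts than M2 macrophages. In M1 against M2, 32 of 50 were higher and 6 lower (64% and 12%), against 39% and 40.1% of all genes. The 6 were Mcm2, Mcm6, Gins2, Pcna, Cdk4 and Cdk6. Of the 17 mitosis genes 15 were higher, led by Tpx2 (log2 fold change 1.30, edgeR, adjusted p = 7.74e-17), Bub1b (0.94) and Top2a (0.82). This balance rested on replicate number 2. Without it 18 were higher and 9 lower, where 39.5% and 38.4% of all genes were, and Mki67, Ccna2, Ccnb1, Ccnb2, Cdk1, Bub1, Plk1 and Kif11 of the mitosis genes were no longer called, Plk1 with an estimate of -0.004. Kif20a then was lower in M1 (-0.42, edgeR, adjusted p = 0.00529) and Cdkn1a higher (0.26, edgeR, adjusted p = 0.000587). With the mouse as a block, 36 genes were called, and Rrm1, Mki67, Bub1 and Plk1 were lost (edgeR, adjusted p = 0.0622, 0.0514, 0.0755 and 0.0901), while Mcm3 (-0.20, edgeR, adjusted p = 0.0355) and Cdkn1a (0.13, edgeR, adjusted p = 0.0271) were gained. Ranges of M1 and M2 did not overlap for 10 genes, Cdc6, Pcna, Rfc3, Ccnd2, Ccnd3, Ccne1, Cdk4, Cdk6, Tpx2 and Cdkn1b, where 35.7% of all genes had ranges that did not overlap.

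Other genes of the same pathways were counted beside the panel. Of 44 other replication genes, 11 were higher and 15 lower in M1 and 5 higher and 29 lower in M2. Neither share in M1 was above that of all genes (37% higher and 40.3% lower), and in M2 the share of lower genes was (39.6% of all genes). Of the other clamp loader genes, Rfc2, Rfc1 and Rfc5 rose in M1, with log2 fold changes of 0.79 (SE 0.0442, edgeR, adjusted p = 1.44e-19), 0.53 and 0.28, and Rfc4 was not called (edgeR, adjusted p = 0.267). Tk1, thymidine kinase, fell in M1 and M2 (-0.90 and -1.60), and Clspn and Pole fell in M2 (-1.10 and -0.96). Of 50 other mitosis genes, 35 were lower and 1 higher in M1 and 49 lower and 0 higher in M2. Without replicate number 2, 27 replication genes and 46 mitosis genes of these lists were lower in M1, and 29 and 48 in M2. The gene that rose was Pttg1, securin (0.74, SE 0.0692, edgeR, adjusted p = 1.04e-12), and the gene not called in M2 was Cks1b, both singled out after their values were seen. Cenpa, the centromeric histone, fell most in M1 (-1.76, from 59.9 ± 15.8 to 17.8 ± 8.74 CPM, SD, n = 15), and Cenpf, a kinetochore protein, fell most in M2 (-1.89).

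Of 26 other inhibitors, pocket proteins and p53 targets, 14 were higher and 11 lower in M1 and 4 higher and 14 lower in M2, and the shares of all genes are those given above. Rbl1 encodes p107, a relative of the retinoblastoma protein, and rose from 36.8 ± 4.72 CPM in M0 to 151.3 ± 10.0 in M1 (SD, n = 15), with 37.4 ± 3.80 in M2. This was a log2 fold change of 2.04 in M1 (SE 0.0544, edgeR, adjusted p = 1.69e-30). Cdkn1c (p57) fell from 6.92 CPM to 0.848 in M1 and 1.64 in M2 (-3.04 and -2.07), and Gadd45a fell in both (-2.01 and -1.61). Of 14 other E2F factors and partners, 13 were tested, with 5 higher and 5 lower in M1 and 5 higher and 6 lower in M2. Myc, which drives growth and G1 entry, went in opposite directions, from 17.7 ± 6.75 CPM in M0 to 4.89 ± 1.30 in M1 (-1.86, edgeR, adjusted p = 3.63e-14) and 67.6 ± 5.00 in M2 (1.93, edgeR, adjusted p = 1.88e-15). Mxd1 rose in M1 (1.05), Mxi1 fell in M1 (-1.63), and E2f7 and Mybl1 fell in M2 (-1.37 and -0.89).

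None of the 50 genes passed the test between genotypes. In Famin p.284R cultures against Famin p.254I cultures, 0 were called for the mean of M0, M1 and M2 (0.0155% of all genes), in M0 (0%), in M1 (0.263%) and in M2 (0.00775%). In Famin p.254V cultures against Famin p.254I cultures, 0 were called for the mean (0.0155%) and in M0, M1 and M2 (0% each), and in Famin p.284R cultures against Famin p.254V cultures, 0 for the mean (0%), in M0 (0%), in M1 (0.0775%) and in M2 (0%). No interaction of genotype with polarization was called either (0% of all genes in each of the 4 tested). At an unadjusted p under 0.05 in edgeR, 1 gene was found for the mean of Famin p.284R against Famin p.254I (Cdkn1b), 2 for the mean of Famin p.284R against Famin p.254V (Cdc6 and Ccnb2), 4 for Famin p.284R against Famin p.254V in M2 (Cdc6, Mki67, Ccnb1 and Tpx2), 1 for the interaction of Famin p.284R with M1 against M0 (Tpx2), and 0 in each of the others. DESeq2 and limma-voom called 0 of the 50 in any of these comparisons as well.

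Cdkn1b was 0.13 lower on the log2 scale in Famin p.284R macrophages than in Famin p.254I macrophages (SE 0.0607, edgeR, adjusted p = 1). In M1 its levels were 56.28, 59.08, 60.42, 64.3 and 68.5 CPM in Famin p.254I mice, 53.21, 53.95, 57.73, 66.32 and 73.9 in Famin p.254V mice, and 46.67, 48.33, 53.28, 56.82 and 67.76 in Famin p.284R. The 3 groups overlapped. The next smallest unadjusted p was that of Ccnb2 for Famin p.284R (-0.32, SE 0.209), and for Famin p.254V the smallest were those of Ccnd2 (-0.30, SE 0.185) and Cdc6 (0.13, SE 0.101), all with an adjusted p of 1 (edgeR).

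Estimates for the mitosis genes leaned to 1 side together without passing the test, and the lean was not confined to them. For Famin p.284R against Famin p.254I, 17 of 17 were below 0 in the mean (median -0.183), 17 in M0, 16 in M1 and 17 in M2, and for Famin p.254V against Famin p.254I, 17 of 17 were above 0 in M2 (median 0.266), but 9 in M0 and 2 in M1. Over all 50 genes, 44 were below 0 in the mean for Famin p.284R against Famin p.254I, 40 in M0, 32 in M1 and 45 in M2. In M1, 9 of the 13 replication genes were above 0. For Famin p.254V against Famin p.254I in M2, 37 of the 50 were above 0. The share of all tested genes on each side of 0 was not counted. The mitosis genes vary together across mice, so that their count of signs is not 17 independent observations. The mitosis sums in M2 were 249 ± 71.0 CPM in Famin p.254I, 298.5 ± 65.3 CPM in Famin p.254V and 215 ± 43.6 CPM in Famin p.284R (SD, n = 5), with overlapping ranges of 180.6 to 353.3, 236.9 to 399.1 and 161.7 to 261.2. Within replicate numbers, which did not pair the libraries in M2 by the check used, the M2 sum of Famin p.254V was above that of Famin p.254I in 5 of 5 and above that of Famin p.284R in 5 of 5, and Famin p.284R was below Famin p.254I in 3 of 5. In M0 and M1, where numbers paired the libraries, each of these orders held in 2 to 4 of 5. In a comparison chosen after the data were seen, the replicate number within each polarization was a block. For the mean of Famin p.284R against Famin p.254V it called 3 mitosis genes and 75 genes in all, where the main fit tested 12905. The 3 were Aurkb (-0.31, SE 0.0702, edgeR, adjusted p = 0.0356), Kif20a (-0.35, SE 0.081, edgeR, adjusted p = 0.0419) and Cenpe (-0.22, SE 0.0505, edgeR, adjusted p = 0.0356). This fit also took the 3 cultures of a mouse as separate samples, so its standard errors rest on cultures and not on mice. Each comparison with Famin p.254I uses the same Famin p.254I libraries.

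**Figure D5:**
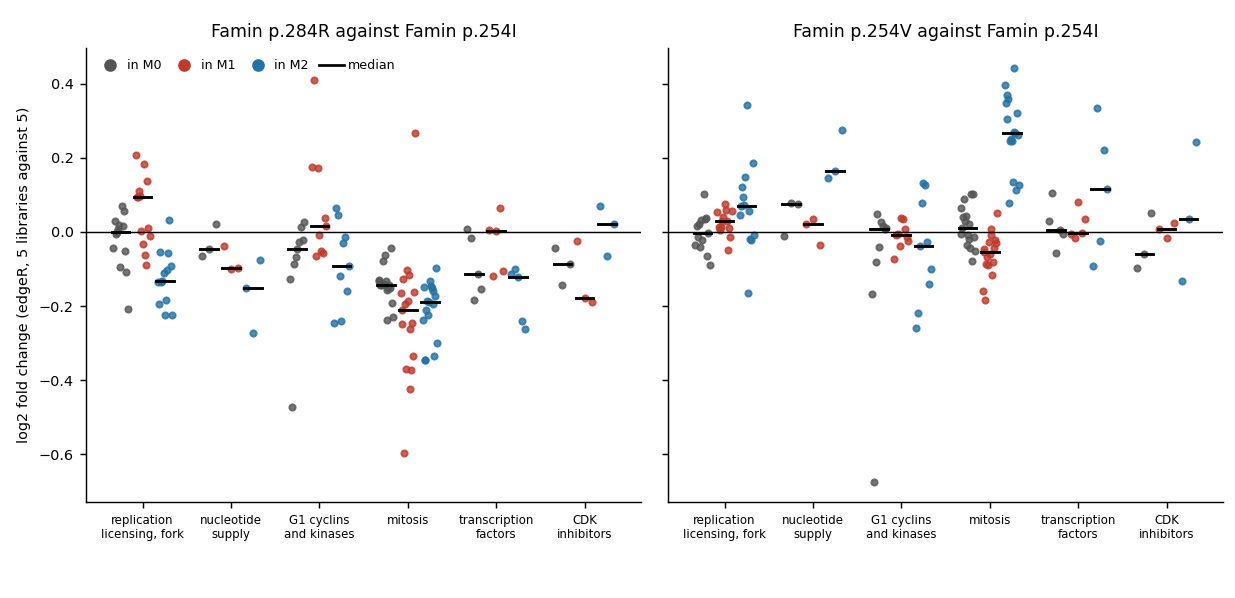
Log2 fold change (edgeR, 5 libraries against 5) of each of the 50 genes in Famin p.284R (left) and Famin p.254V (right) against Famin p.254I, in M0 (grey), M1 (red) and M2 (blue), by role, with bars at the medians. No point passed an adjusted p of 0.05, and the medians of the mitosis genes lie between -0.211 and -0.142 in Famin p.284R and at 0.266 in Famin p.254V in M2.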

How the data were processed

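RNA from macrophages was prepared as stranded poly(A) libraries and sequenced as single reads of 50 bases on an Illumina instrument. Per the labels and the study's methods, the authors checked reads with FastQC, trimmed them with Trim Galore and aligned them to mm10 with HISAT2. The counting tool, its annotation and its use of strand are not given in the sources used here. The deposited counts are whole, unnormalized read counts per Ensembl gene (29307 genes), and the deposited CPM table holds 11900 of these genes, scaled by the authors to library totals without TMM factors. Dividing out its steps gave whole reads equal to the counts for 100% of values, within 0.01 reads.

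Counts of all 45 libraries were fitted as 9 groups with edgeR 4.0.16 in R 4.3.3 (filterByExpr, TMM, robust quasi-likelihood test), and p-values were adjusted over 12905 genes by the Benjamini-Hochberg method, with a threshold of 0.05. Polarizations were compared as the mean over genotypes. Standard errors are the fold change divided by the square root of the F statistic. The test was also run on simulated counts drawn independently for each library. These held no effect of mouse or replicate number, so the check does not cover such effects. Levels are CPM on TMM-scaled library sizes, divided for levels per kilobase by the exon length in GENCODE M21. Alternatives used DESeq2 1.42.0, limma 3.58.1 with voom, other scaling and filters, blocks, and left-out libraries. Figures were drawn with matplotlib 3.10.9.

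Depth ranged from 17239009 to 43740283 counts, and genes under about 10 CPM, such as Ccnb1 and Mybl2, carry the most counting error. No libraries were identical. Same-numbered cultures of a genotype were taken to share a mouse. Between genotypes, same-numbered libraries deviated together in 15 of 15 pairs in M0 (correlations 0.14 to 0.81) and in M1 (0.25 to 0.82) but in 13 of 15 in M2 (-0.35 to 0.73).

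Members and lists were chosen with earlier results of these data known. All members are named. From each list of other pathway genes, up to 3 with the largest called change in M1 and 3 in M2 were named, and between genotypes the 2 members with the smallest unadjusted p. Promoter windows are those of RefSeq (GRCm38.p6), printed for 2 replication and 2 mitosis genes with most matches (Mcm3 tied with Mcm5 and Mcm6 and was listed first) and for Cdkn1a.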

Additional observations from a re-analysis of the deposited data

Results flagged for a closer look

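In groups of 5 libraries, the gap of the highest or lowest library to its neighbour was compared with the range of the group (Dixon's critical value), for the role sums and 7 genes whose values were given by genotype. It was passed in 20 of 117 groups, where chance gives about 1 in 20 for independent groups. The groups are not independent, because the 7 genes also count in the role sums, so the 20 cannot be judged against this rate. Of the 20, 15 were M1 libraries of replicate number 2, and 4 were the M0 library of replicate number 5 in Famin p.254I. No interaction was called.

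In Famin p.254I M1, replicate 2 was the highest for the replication sum at 767.6 CPM (others 524.3 to 594.4), the nucleotide supply sum at 202 (92.96 to 118.9), the mitosis sum at 723 (282.8 to 400.8) and the transcription factor sum at 170.4 (94.34 to 110.6). It was also the highest for Cdc6 at 10.64 CPM (8.356 to 8.843), Aurkb at 36.24 (14.01 to 18.89), Kif20a at 32.23 (8.876 to 15.59) and Cenpe at 32.07 (15.25 to 18.55), and the lowest for Ccnd2 at 26.61 (47.44 to 52.15).

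In Famin p.254V M1, replicate 2 was the highest for the nucleotide supply sum at 177.4 CPM (103.2 to 117), the mitosis sum at 603.3 (320.9 to 402.4), the transcription factor sum at 155.6 (102.3 to 115.5), Aurkb at 31.19 (15.97 to 19.17) and Cenpe at 28.2 (15.43 to 18.55). In Famin p.284R M1, replicate 2 was the highest for the replication sum at 854.2 CPM (513.8 to 611.1).

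In Famin p.254I M0, replicate 5 was the highest for the replication sum at 1167 CPM (655.3 to 787.8), the nucleotide supply sum at 219.8 (116.7 to 135.2), the transcription factor sum at 158.7 (101.3 to 109.5) and Cdc6 at 11.19 (6.112 to 7.431). Replicate 4 of that group was the highest for the inhibitor sum at 696 CPM (516.5 to 559.6), most of which is Cdkn1a. What sets these cultures apart was not tested.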

How the results depend on the processing

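For single genes, 120 results under 30 other settings each gave 3600 comparisons, of which 3434 kept direction and side of the threshold, 165 lost the call and 1 turned direction. That was Plk1 in M1 against M2, with a log2 fold change of 0.49. It ran from -0.0043 to 0.73 with mice or replicate numbers left out, the lowest without replicate number 2. Calls gained by genes not called in the main fit are outside this tally. They were most frequent for Rrm1 in M1 against M0 (10 settings) and for Mcm3 and Cdkn1a in M1 against M2 (8 settings each). Members called in M1 against M0, M2 against M0 and M1 against M2 (37, 41 and 38) ran from 36 to 41, 40 to 44 and 33 to 39 under other tools, scalings, filters and blocks, and from 31 to 44, 38 to 42 and 27 to 36 with every library of 1 replicate number left out. Other mitosis genes called in M1 against M2 (34) ran from 21 to 38 with libraries left out.

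With the replicate number as a block, 39, 44 and 39 members were called in these comparisons, with the mouse as a fixed block 38, 43 and 36, and with the mouse as a random block in limma-voom 41, 42 and 38. The mouse block changed no call of a member other than those named above, plus E2f8, lower in M2 (-0.28, edgeR, adjusted p = 0.0431). Between genotypes the replicate number block and the random mouse block called 0 members. The fixed mouse block cannot compare genotypes, because each mouse carries a single genotype. The replicate number within each polarization as a block called 3 in Famin p.284R against Famin p.254V for the mean, against 0 without it. The cause was not tested. Calls most often lost were Cdc25a in M2 against M0 (18 settings) and Mcm6, Ccnd1, Plk1 and Bub1 in M1 against M2 (17, 16, 16 and 15). Depth limits the genes of low level most, and 5 mice a genotype limit the genotype comparisons.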
